A study of Mus musculus with 10 samples.

Results

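Lecticans, link proteins and tenascins form the matrix that fills the space between cells of the brain. The genes examined were the 9 members of these families Acan, Bcan, Ncan, Vcan, Hapln1, Hapln2, Hapln4, Tnc and Tnr, chosen by symbol, and all 9 were found among the 18216 genes of the table. RNA-Seq libraries, each from a separate sample of prefrontal cortex, came from 5 Arid1b heterozygotes (HT) and 5 wild types (WT). All were males of strain C57BL/6N aged 10 days after birth. HT mice carry 1 normal copy of Arid1b, a subunit gene of the BAF chromatin-remodelling complex. The other copy has a CRISPR/Cas9 deletion at exon 5 with 2 inserted bases, which truncates the protein. The mice came from crosses of HT males with WT females, and all HT mice carry the same edited allele. Because the labels do not tie libraries to litters, p-values measure the spread between these libraries.

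In this matrix the lecticans are chondroitin sulfate proteoglycans whose N-terminal domain holds on to hyaluronan, a long sugar polymer. Link proteins (Hapln genes) clamp that contact, and tenascins bind the C-terminal domain of the lecticans and cross-link them. Around some neurons, mainly parvalbumin interneurons, the same parts condense after birth into perineuronal nets, and brain matrix is known to pass from a juvenile form rich in Ncan, Vcan and Tnc to an adult form rich in Bcan, Acan and Tnr.

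Totals of the normalised counts, which the methods describe as reads divided by size factors, lay between 31106330 and 32106791 per mouse. Since sequencing depth is unknown, errors rest on the spread between mice. Arid1b itself, the targeted gene, was lower in every HT mouse (1894 ± 86.6, SD, n = 5) than in any WT mouse (2842 ± 142, SD, n = 5; log2 fold change -0.59, SE 0.05, limma adjusted p 9.96e-05). All 10 of the excitatory neuron markers and all 13 of the inhibitory neuron markers were detected, with summed values of 123786 to 155004 and of 26214 to 28918. Markers of striatum were detected as well, and their sum ranged from 7044 to 23780 between mice. HT2 stood apart in the share of mitochondrial transcripts (8.43%, against 5.15% to 6.76% in the other 9 mice) and had the highest astrocyte score.

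Levels of different genes were compared as normalised count per kilobase (kb) of exon. Ncan (neurocan, abundant in growing brain) was the highest, at 2331 ± 131 per kb (SD, n = 10), and Bcan (brevican, made by astrocytes and oligodendrocyte precursors) followed with 1950 ± 238 per kb. The ranges of Ncan and Bcan over the 10 mice overlapped, and with the longest transcript in place of the union of exons Bcan came first at 2523 per kb. Tnr (tenascin-R, of oligodendrocyte-lineage cells and some interneurons) came next with 934 ± 46.0 per kb, and Hapln1 (the most widespread link protein) after it with 362 ± 35.0 per kb. Tnc (tenascin-C, of immature astrocytes) had 177 ± 9.97 and Vcan (versican, strong in oligodendrocyte precursors) 152 ± 24.6 per kb, and their ranges overlapped. Hapln4 (a partner of brevican in nets) had 56.8 ± 12.1 per kb. Acan (aggrecan, the core lectican of perineuronal nets) had 18.6 ± 2.97 and Hapln2 (a link protein of the nodes of Ranvier) 10.9 ± 5.08 per kb, again with overlapping ranges.

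The members thus spanned 214-fold per kb at this age. Of the summed lectican level per kb, Ncan made up 52.4%, Bcan 43.8%, Vcan 3.41% and Acan 0.419%. Hapln1 made up 84.2% of the summed level of the link proteins, Hapln4 13.2% and Hapln2 2.54%. Ncan and Bcan lay above 97.3% and 96.6% of the 16781 tested genes in level per kb, and Acan above 18.0%. With coding length in place of exons Acan lay above 7.15% of genes and came last, and the shares of Acan, Hapln4 and Hapln2 in their families were 0.285%, 8.402% and 1.14%.

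**Figure D1:**
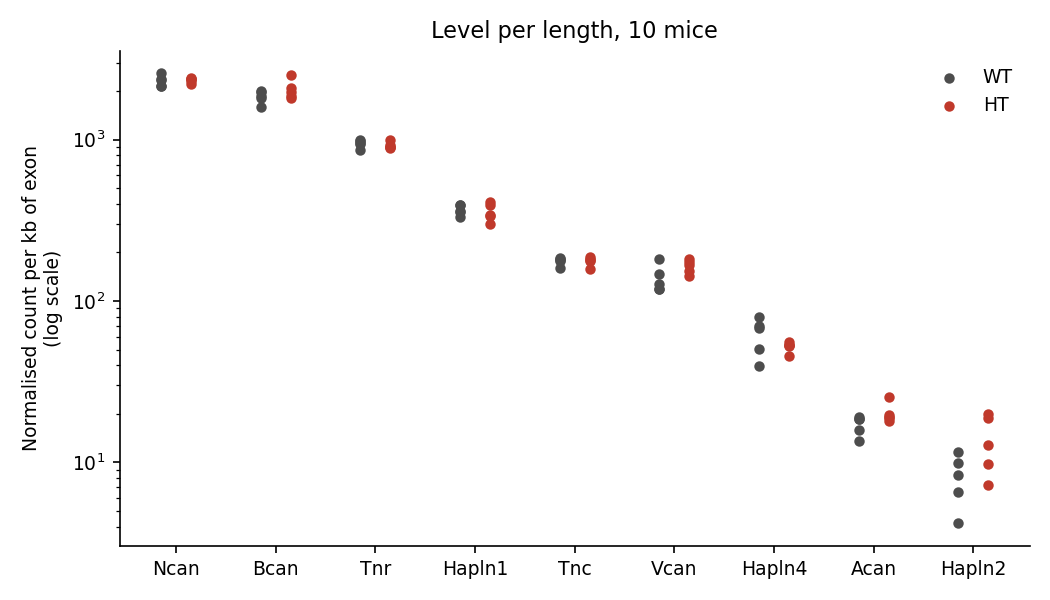
Normalised count per kb of exon (log scale) for the 9 genes in each of 5 WT and 5 HT mice, ordered by mean, with 1 point per mouse. Ncan and Bcan sit near 2000 per kb, Acan and Hapln2 at 25.3 per kb or less, and WT and HT points lie over each other for most genes.

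The genes also lie in pairs on the chromosomes (GENCODE M21 annotation of GRCm38). On chromosome 13 Vcan (89655312 to 89742509, minus strand) is separated from Hapln1 (89539796 to 89611652, plus strand) by 43.7 kb. On chromosome 3 Bcan (87987531 to 88000230, minus strand) is 21.5 kb from Hapln2 (88021750 to 88027583, minus strand), and on chromosome 8 Ncan (70093085 to 70120873, minus strand) is 2.22 kb from Hapln4 (70083457 to 70090862, plus strand). Acan (chromosome 7, 79053483 to 79115099, plus strand) ends 2 bases from the end of Hapln3, the remaining link protein gene, which lies on the opposite strand. No gene of the table lies between the genes of a pair. Tnc (chromosome 4, 63959785 to 64047015, minus strand) and Tnr (chromosome 1, 159523769 to 159931729, plus strand) stand apart. Vcan overlaps Gm4117 on the opposite strand. The library kit keeps strand, but whether strand was used in counting is not given in the sources used here, so the Vcan and Acan values may hold reads of these neighbours.

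Levels of neighbours differed: Bcan and Ncan were far above Hapln2 and Hapln4 per kb, and Vcan was below Hapln1. Across the 10 mice Pearson's r on the log2 scale was 0.16 for Vcan and Hapln1 (permutation p = 0.647, Spearman's rho 0.15, permutation p = 0.682). It was 0.195 for Bcan and Hapln2 (permutation p = 0.601, rho 0.13, permutation p = 0.733) and -0.033 for Ncan and Hapln4 (permutation p = 0.927, rho 0.08, permutation p = 0.838). Acan and Hapln3 had r = 0.63 (permutation p = 0.0468, rho 0.67, permutation p = 0.0392, r = 0.64 without HT2 and WT5). After Benjamini-Hochberg adjustment over the 4 pairs the permutation p for r was 0.187 for Acan and Hapln3 and at least 0.862 for the others.

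The next comparison asked whether the 9 genes differed between genotypes. Of the 9, 5 had a positive log2 fold change (HT minus WT), beside 48.8% of all tested genes, and 4 a negative one, and 0 passed a limma adjusted p under 0.05, a threshold that 3 of 16781 tested genes (0.0179%) passed. Adjusted p-values of the members ranged from 0.51 to 0.99. Vcan and Hapln2 had a limma unadjusted p under 0.05, both higher in HT, which is 2 of 9 beside 9.23% of all tested genes (4.71% higher and 4.52% lower in HT). Leaving out any 1 mouse but WT4 lowered this count to 1 or 0 (0 without HT5 and 0 without WT3), and without WT4 it was 2, Vcan and Hapln4. The share of all tested genes at this threshold moved too, to 6.73% without HT5, 6.46% without WT3 and 10.9% without WT4. In 0 of 9 genes were the groups separate, beside 1.62% of all tested genes. The median log2 fold change of the members was 0.02, against -0.0035 over all tested genes.

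Among the lecticans, Vcan had the smallest p. Its normalised counts were 2080, 2641, 2220, 2412 and 2512 in HT1 to HT5 and 2140, 1857, 1716, 2648 and 1717 in WT1 to WT5. Each of the 5 HT mice exceeded the mean of WT, while WT4 had the highest value of all 10. The mean was 2373 ± 225 in HT against 2015 ± 394 in WT (SD, n = 5 each), which is 0.25 on the log2 scale (SE 0.11, 95% interval 0.02 to 0.48, limma unadjusted p 0.0372, adjusted p 0.51). Without WT4 the log2 fold change was 0.35 (limma unadjusted p 0.000852), and without HT2 and HT5 it was 0.17 (limma unadjusted p 0.197).

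Markers of oligodendrocyte precursors, the cells in which Vcan is strong, were set beside these values. Of these 10 markers 8 had a positive log2 fold change (median 0.14), beside 48.8% of all tested genes, and 0 had a limma unadjusted p under 0.05, beside 9.23%. Their summed values were 16223 to 20991 in HT and 14905 to 19076 in WT, with no marker at 0. The score of these markers differed by 0.50 (HT minus WT, exact permutation p = 0.373), by 0.28 without HT2 and by 0.22 without WT3. In bulk tissue, more cells of a type and more RNA per cell cannot be told apart. The part of these markers in the Vcan values was not tested.

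Acan was scarce, and its highest value was in HT2. It had 134, 189, 140, 142 and 148 normalised counts in HT1 to HT5 and 142, 139, 119, 138 and 101 in WT1 to WT5. The 5 HT mice lay above the WT mean and HT2 lay far above the rest. The log2 fold change was 0.23 (SE 0.13, 95% interval -0.04 to 0.51, limma adjusted p 0.57), 0.15 without HT2 and 0.15 without WT5.

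Bcan was also highest in HT2. Its normalised counts were 7367, 10163, 7531, 8014 and 8541 in HT1 to HT5 and 8132, 8071, 6490, 7608 and 7326 in WT1 to WT5. HT2 and HT5 lay above every WT mouse, and the other 3 HT mice lay within the WT range. The log2 fold change was 0.14 (SE 0.09, 95% interval -0.04 to 0.32, limma adjusted p 0.60), and it was 0.066 without HT2, 0.088 without WT3, 0.074 with sample quality weights and 0.025 without HT2 and HT5.

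Ncan, the highest lectican per kb of exon though below Bcan by longest transcript, differed least among the lecticans. It ranged from 16034 over a median of 17032 to 17444 in HT and from 15464 over 16863 to 18566 in WT, so that the HT values lay inside the WT range. The log2 fold change was 0.02 (SE 0.05, limma adjusted p 0.94), with a 95% interval of -0.10 to 0.13 around 0.

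**Figure D2:**
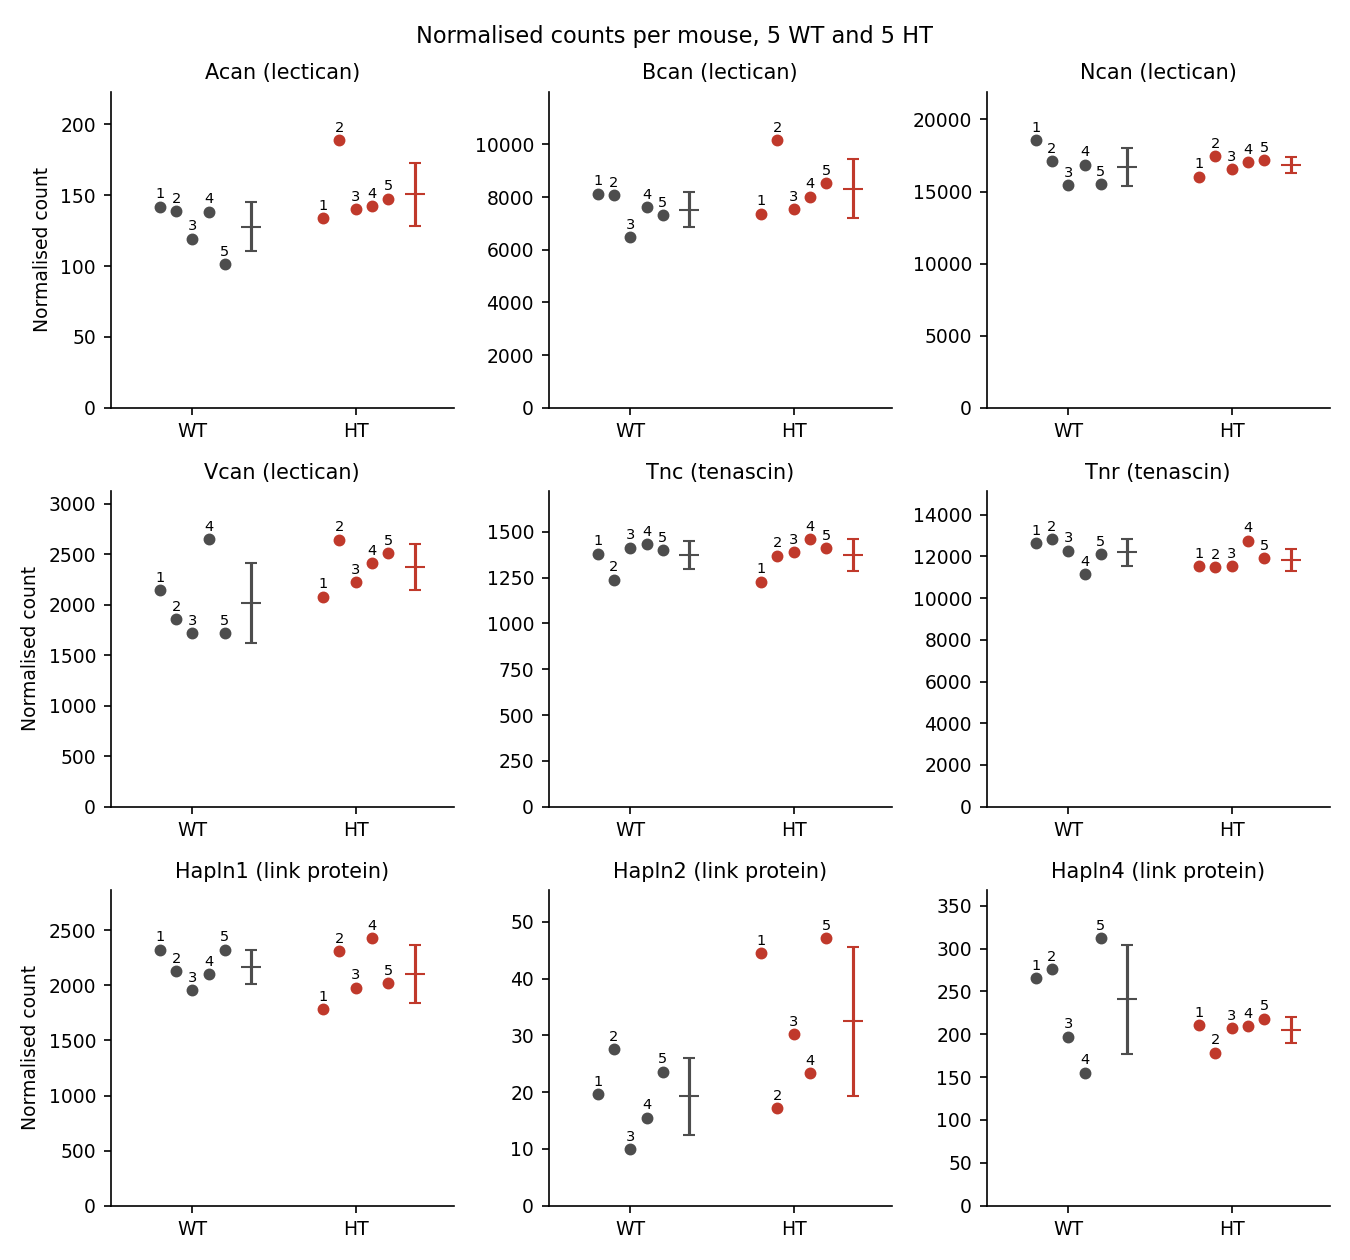
Normalised count of each of the 9 genes in every mouse (numbered points, 5 WT and 5 HT), with mean and SD beside each group and the vertical axis from 0. The groups overlap in all 9 panels, HT2 stands above the other mice for Acan and Bcan, and WT4 is the highest mouse for Vcan and the lowest for Hapln4.

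Levels of the lecticans were compared from mouse to mouse. All 6 pairs of lecticans had a positive r across the 10 mice, from 0.58 to 0.84, and from 0.57 to 0.79 after the genotype means were removed. Among all 36 pairs of members, Acan with Vcan passed adjustment (r = 0.78, permutation p = 0.0011, adjusted 0.04, rho 0.70, adjusted permutation p for rho 0.278, r = 0.73 without HT2 and WT5). By rank, 3 pairs passed, Bcan with Ncan (rho 0.96, adjusted permutation p = 0.00288, r = 0.69, r = 0.75 without HT2 and WT3), Acan with Bcan (rho 0.90, adjusted permutation p = 0.0137, r = 0.84, r = 0.95 without HT2 and WT5) and Acan with Ncan (rho 0.84, adjusted permutation p = 0.0412, r = 0.69, r = 0.75 without HT2 and WT5). Vcan with Bcan (r = 0.67, permutation p = 0.0268, adjusted 0.194, r = 0.38 without HT2 and WT3) and Vcan with Ncan (r = 0.58, permutation p = 0.0777, adjusted 0.35) passed by neither measure. No pair that held a link protein or a tenascin passed either. The genes of a pair share their library, its dissection and its scaling.

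To set the lecticans side by side as genes, the 250 bases before the start site of each are shown, from RefSeq (GRCm38.p6). Of the 9 members 8 had an entry, and Hapln4 had none. The sequences are written 5′ to 3′ in the direction of the gene, ending at the base before the annotated start. RefSeq starts differ from the gene ends given above. Bases after the RefSeq start were found in GENCODE transcripts for Ncan and Vcan but not for Acan and Bcan, whose direction was thus not checked in this way. The motifs were picked after the correlations were seen. Capitals mark matches on either strand to GGGCGG (the GC box), CCAAT (the CCAAT box) and TATAAA (the TATA box), of which GC box matches overlap each other in Acan.
Acan, chr7:79052976-79053225, plus strand: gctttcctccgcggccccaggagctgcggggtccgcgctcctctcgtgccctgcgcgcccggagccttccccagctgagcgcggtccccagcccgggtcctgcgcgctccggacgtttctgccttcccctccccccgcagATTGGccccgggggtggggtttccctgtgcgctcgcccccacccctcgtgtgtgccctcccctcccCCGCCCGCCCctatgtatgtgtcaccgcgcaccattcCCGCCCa
Bcan, chr3:88000357-88000606, minus strand: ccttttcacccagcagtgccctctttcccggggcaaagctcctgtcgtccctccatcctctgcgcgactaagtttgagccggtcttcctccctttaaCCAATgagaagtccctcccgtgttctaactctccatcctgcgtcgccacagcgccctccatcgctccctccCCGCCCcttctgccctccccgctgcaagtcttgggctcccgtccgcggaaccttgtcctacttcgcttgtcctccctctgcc
Ncan, chr8:70120845-70121094, minus strand: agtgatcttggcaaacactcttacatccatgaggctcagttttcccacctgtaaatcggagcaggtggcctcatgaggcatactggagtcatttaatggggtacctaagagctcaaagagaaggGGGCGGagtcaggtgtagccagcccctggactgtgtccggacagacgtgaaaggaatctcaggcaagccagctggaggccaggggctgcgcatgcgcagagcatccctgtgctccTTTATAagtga
Vcan, chr13:89742513-89742762, minus strand: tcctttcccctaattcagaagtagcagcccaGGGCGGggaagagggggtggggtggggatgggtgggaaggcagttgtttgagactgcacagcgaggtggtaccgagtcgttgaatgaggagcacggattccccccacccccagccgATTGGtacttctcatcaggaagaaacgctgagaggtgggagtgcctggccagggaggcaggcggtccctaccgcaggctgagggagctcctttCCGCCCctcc
The 4 sequences did not share all of these elements. GGGCGG was found in all 4, with 3 matches in Acan, 2 in Vcan and 1 each in Bcan and Ncan, where 32.7% of 32851 promoter windows of this length hold it. CCAAT was found in Acan, Bcan and Vcan (33.8% of windows) and TATAAA in Ncan only (12.4% of windows), where the match ends 6 bases before the start. Guanine and cytosine made up 74.4% of the bases in Acan, 62.0% in Bcan, 54.4% in Ncan and 62.4% in Vcan, against a median of 52.4% over all windows. CANNTG, the E-box, matched 4 times in Ncan, 1 time each in Acan and Vcan and 0 times in Bcan (66.2% of windows hold it). AACAAT, the SOX core, matched 0 times in all 4 (9.42% of windows). TTGGC, the NFI half-site, matched 1 time each in Acan and Ncan and 0 times in Bcan and Vcan (41.5% of windows). A match is a description of letters and not of a bound site.

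Among the link proteins, Hapln2 had the largest log2 fold change of the 9 genes and the widest spread. Its normalised counts were 44.5, 17.1, 30.2, 23.3 and 47.1 in HT1 to HT5 and 19.7, 27.5, 9.97, 15.5 and 23.6 in WT1 to WT5. HT1, HT3 and HT5 lay above every WT mouse, while HT2 and HT4 lay within the WT range. The mean was 32.5 ± 13.1 in HT against 19.3 ± 6.85 in WT (SD, n = 5 each), a difference of 0.70 on the log2 scale (SE 0.32, 95% interval 0.01 to 1.40, limma unadjusted p 0.0483, adjusted p 0.54). Leaving out a mouse at a time gave 0.50 (without WT3, limma unadjusted p 0.131) to 0.90 (without HT2, limma unadjusted p 0.0134, adjusted p 0.63). Without HT5 it was 0.55 (limma unadjusted p 0.124).

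Hapln2 is made by myelinating oligodendrocytes, and markers of these cells had positive log2 fold changes for 10 of 10 genes (median 0.39), beside 48.8% of all tested genes. A limma unadjusted p under 0.05 was reached by 0 of these 10 markers, beside 9.23% of all tested genes. Their summed values ranged from 62914 to 92967 in HT and from 35131 to 95605 in WT, with no marker at 0. The lowest score of these markers and the lowest Hapln2 value were both in WT3. HT5, the mouse with the highest Hapln2 value, had a mature oligodendrocyte score of -0.37, below the HT mean of 0.42. The part of these cells in the Hapln2 values was not tested.

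Hapln4 went the other way in mean, and WT mice spread far more than HT mice. It had 210, 179, 207, 210 and 218 normalised counts in HT1 to HT5 and 265, 276, 197, 155 and 312 in WT1 to WT5. No HT mouse lay above the WT mean, yet all 5 lay within the WT range. The coefficient of variation was 7.43% in HT and 26.4% in WT, and the log2 fold change was -0.19 (SE 0.16, 95% interval -0.54 to 0.15, limma adjusted p 0.70). Without WT4 it was -0.34 (limma unadjusted p 0.0187, adjusted p 0.40), and without WT5 it was -0.089 (limma unadjusted p 0.578).

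Hapln1 ranged from 1784 over a median of 2021 to 2429 in HT and from 1957 over 2128 to 2326 in WT. HT1 was below and HT4 above every WT mouse. The log2 fold change was -0.048 (SE 0.08, 95% interval -0.22 to 0.12, limma adjusted p 0.86).

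Both tenascins overlapped between HT and WT. Tnc had 1228 to 1460 (median 1389) in HT and 1239 to 1432 (median 1398) in WT, and its means were 1371 ± 86.8 and 1373 ± 77.4 (SD, n = 5). Its log2 fold change was -0.0020 (SE 0.06, limma adjusted p 0.99), and the 95% interval of the fold ran from 0.917 to 1.09. The sign of this value turned under 8 of 20 alternative settings, the 2 other scalings among them.

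Tnr had 11477 to 12750 (median 11524) in HT and 11163 to 12827 (median 12280) in WT. All 5 HT mice lay within the WT range, and 4 of them lay below the WT mean. The log2 fold change was -0.043 (SE 0.05, limma adjusted p 0.78), with a 95% interval of the fold from 0.902 to 1.04, and it turned to 0.0091 under quantile normalisation.

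**Figure D3:**
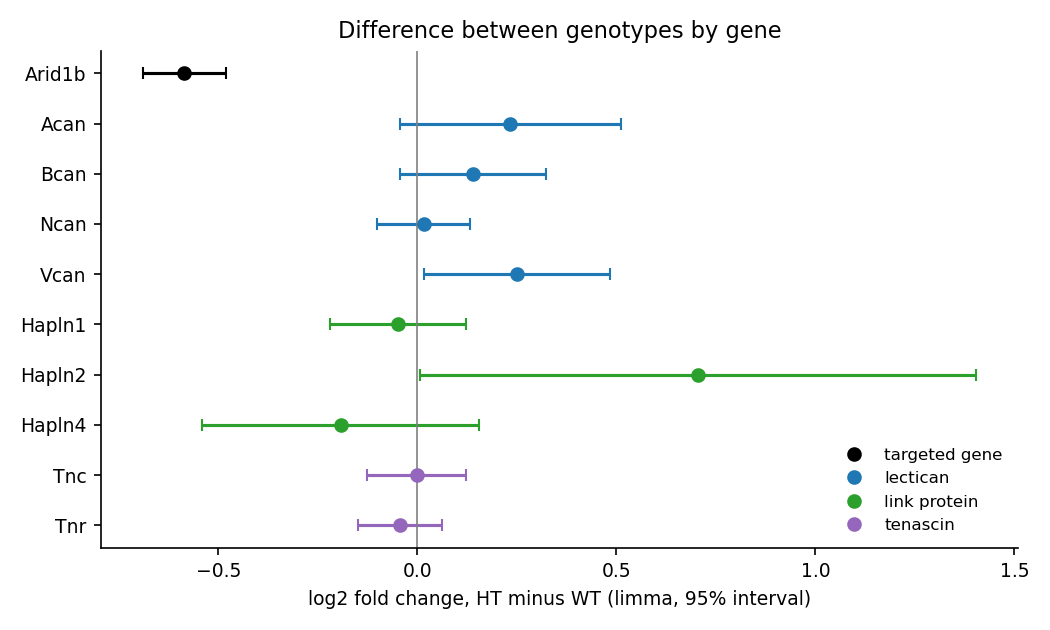
Log2 fold change (HT minus WT) from limma with its 95% interval for Arid1b and the 9 genes, coloured by family. Arid1b lies at -0.59 with an interval below 0, the intervals of Vcan and Hapln2 reach down to 0.02 and 0.01, and the other 7 intervals hold 0.

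Ratios within a mouse largely cancel how its library was scaled, and 6, taken of normalised counts plus 1, were compared by a two-sided exact permutation test of the genotype labels (smallest possible p 0.00794). In 4 of them an adult-type member was set over a juvenile-type one (Acan to Vcan, Bcan to Ncan, Bcan to Vcan and Tnr to Tnc), and the other 2 had Hapln1 as denominator. The log2 ratio of Bcan to Ncan was -1.12, -0.78, -1.14, -1.09 and -1.01 in HT1 to HT5 and -1.19, -1.08, -1.25, -1.15 and -1.08 in WT1 to WT5. Every HT mouse exceeded the mean of WT, and HT2 and HT5 above every WT mouse, with a difference of 0.12 (SE 0.07, exact permutation p = 0.103, adjusted over the 6 ratios 0.31). The difference was 0.063 without HT2 and 0.036 without HT2 and HT5.

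The ratio of Acan to Hapln1, aggrecan to the link protein of nets, came closest to the threshold. It was -3.72, -3.61, -3.81, -4.09 and -3.77 in HT1 to HT5 and -4.02, -3.93, -4.02, -3.92 and -4.51 in WT1 to WT5. In HT1, HT2, HT3 and HT5 it was above every WT mouse, and in HT4 it was below 4 of the 5. The difference was 0.28 (SE 0.14, exact permutation p = 0.0556, adjusted 0.31). Leaving out a mouse at a time gave 0.175 to 0.354. The difference was 0.175 without WT5 (exact permutation p = 0.111), 0.354 without HT4 (exact permutation p = 0.0159), 0.32 without WT2 (exact permutation p = 0.0476) and 0.323 without WT4 (exact permutation p = 0.0476), each p unadjusted.

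In the other ratios the groups lay over each other. The difference (HT minus WT) was -0.017 (SE 0.10, exact permutation p = 0.841) for Acan to Vcan, -0.11 (SE 0.11, exact permutation p = 0.333) for Bcan to Vcan, -0.041 (SE 0.07, exact permutation p = 0.587) for Tnr to Tnc and -0.14 (SE 0.19, exact permutation p = 0.452) for Hapln4 to Hapln1. WT4 had the lowest ratio of all mice in each of these 4, with -4.25, 1.52, 2.96 and -3.75. Without WT4 the difference was -0.21 for Bcan to Vcan (exact permutation p = 0.0317, unadjusted) and -0.28 for Hapln4 to Hapln1 (exact permutation p = 0.119). These 2 differences were also smaller without WT5 (-0.066 and -0.067) and without WT2 (-0.059 and -0.080), and that of Hapln4 to Hapln1 was -0.060 without HT2.

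**Figure D4:**
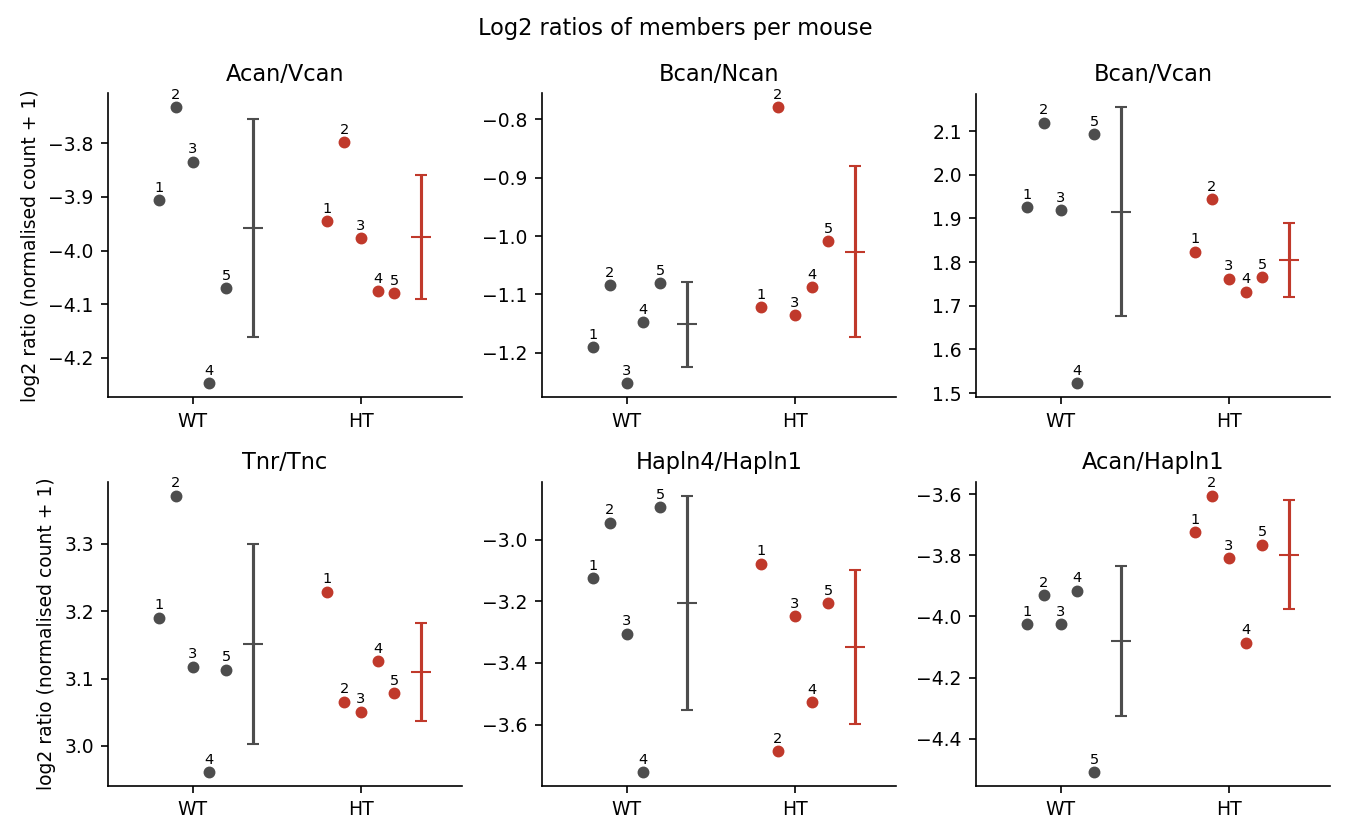
Log2 ratio of normalised counts plus 1 for 6 pairs of genes in every mouse (numbered points, 5 WT and 5 HT), with mean and SD beside each group. Acan/Hapln1 is higher in 4 HT mice than in every WT mouse, HT2 leads for Bcan/Ncan, and WT4 is lowest for Acan/Vcan, Bcan/Vcan, Tnr/Tnc and Hapln4/Hapln1.

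The next question was which cell type markers the members followed from mouse to mouse. A marker score is the mean over a list of the z-scores of its genes, and the 9 genes were set against 6 scores, 54 relations in all. By r, 2 passed Benjamini-Hochberg adjustment, both for Bcan, and by rank 3 passed, the same 2 and Acan with the astrocyte score. Bcan followed the astrocyte score (r = 0.90, permutation p = 5e-05, adjusted 0.0027, rho 0.87, permutation p = 0.00229, adjusted 0.0412) and the oligodendrocyte precursor score (r = 0.95, permutation p = 0.00039, adjusted 0.0105, rho 0.93, permutation p = 0.00037, adjusted 0.02). Without the 2 mice farthest from the median score r was 0.84 for astrocytes (HT2 and HT5 left out) and 0.83 for precursors (HT2 and WT3 left out). Within a genotype r was 0.91 in HT and 0.91 in WT for astrocytes and 0.98 and 0.96 for precursors, which was not tested. Without HT2, 1 of the 54 relations passed.

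With the excitatory neuron, microglia and endothelial and mural scores added after the data were seen, 4 of 81 relations passed adjustment by r. Besides the 2 of Bcan above these were Bcan with the microglia score (r = 0.82, permutation p = 0.00191, adjusted 0.0387, rho 0.61, adjusted permutation p for rho 0.362), with r = 0.55 without HT2 and HT5, and Vcan with the excitatory neuron score. The latter was negative (r = -0.81, permutation p = 0.00176, adjusted 0.0387, rho -0.89, adjusted permutation p for rho 0.0437), with r = -0.83 without HT2 and WT4. Bcan with the endothelial and mural score had r = 0.86 (permutation p = 0.00312, adjusted 0.0505, rho 0.66), and r = 0.63 without HT1 and HT2. Acan and Bcan had r = -0.81 and -0.81 with the excitatory neuron score (adjusted permutation p = 0.0724 and 0.0739). Which cell type these values follow cannot be told apart in these mice.

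For Acan, known as a neuronal gene, the relation with the astrocyte score passed by rank only. Its rho was 0.88 (permutation p = 0.00162, adjusted 0.0412), with r = 0.73 (permutation p = 0.0126, adjusted 0.171). Without HT2 and HT5, the mice farthest from the median score, r was 0.46, and how far the linear relation rests on them was not tested. Within a genotype r was 0.79 in HT and 0.35 in WT. With the precursor score Acan had r = 0.79 (permutation p = 0.0186, adjusted 0.181) and Ncan and Vcan had r = 0.73 and 0.72 (permutation p = 0.0201 and 0.0111, adjusted 0.181 and 0.171).

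The net genes Acan and Hapln4 did not follow the inhibitory neuron score in a way that passed, with r = 0.31 and -0.30 (adjusted permutation p = 0.691 for both). For the lecticans this r had opposite signs within the genotypes, at -0.79 in HT and 0.60 in WT for Acan, -0.87 and 0.72 for Bcan, -0.91 and 0.70 for Ncan and -0.93 and 0.92 for Vcan, and the difference was not tested. WT3 and WT5 had the lowest inhibitory neuron scores (-0.53 and -0.25) and striatum scores of -1.35 and -1.06, while HT5 had -0.06 and -1.30. The part of dissected striatum in the inhibitory neuron score was not tested. Hapln2 had its highest r with the mature oligodendrocyte score (0.56, adjusted permutation p = 0.416), which was -0.18 without WT3 and WT4. Tnc and Tnr had r between -0.39 and 0.54 with all 6 scores.

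**Figure D5:**
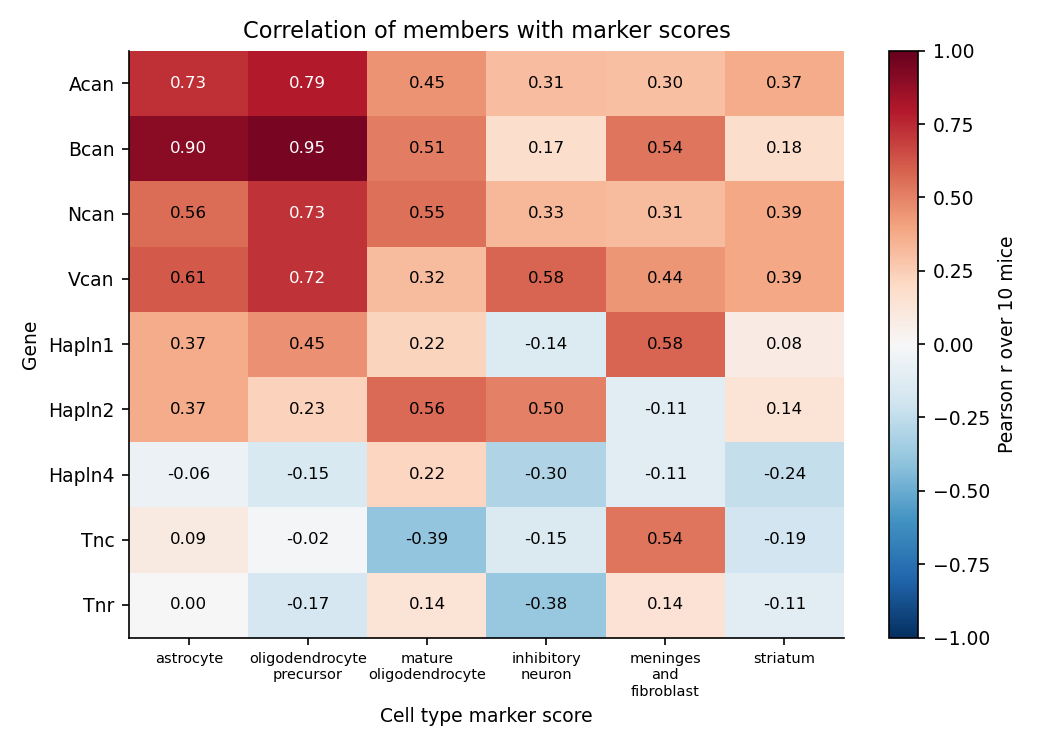
Pearson's r over 10 mice between the log2 level of each of the 9 genes (rows) and 6 cell type marker scores (columns), from -1 (blue) to 1 (red). The highest values are those of Bcan with the oligodendrocyte precursor score (0.95) and with the astrocyte score, and the 4 lecticans have r of 0.56 to 0.95 in the first 2 columns.

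These scores did not pass a test between genotypes themselves. The astrocyte score differed by 0.96 (HT minus WT, exact permutation p = 0.0714, adjusted over 10 lists 0.496). Of its markers 12 of 12 had a positive log2 fold change, beside 48.8% of all tested genes, with summed values of 189089 to 242419 in HT and 175714 to 206342 in WT. A limma unadjusted p under 0.05 was reached by 7 of these 12 and by 3 of 10 microglia markers, beside 9.23% of all tested genes. It was reached by 1 of 13 inhibitory neuron markers and by 0 precursor or mature oligodendrocyte markers. The oligodendrocyte precursor score differed by 0.50 (exact permutation p = 0.373) and the mature oligodendrocyte score by 0.83 (exact permutation p = 0.198). The inhibitory neuron score differed by 0.25 (exact permutation p = 0.159). With a mouse left out at a time the astrocyte difference ranged from 0.80 (without HT2, exact permutation p = 0.143) to 1.15 (without HT1, exact permutation p = 0.0317, unadjusted). The precursor difference was 0.28 without HT2 and 0.22 without WT3, the mature oligodendrocyte difference 0.59 without WT3, and the inhibitory neuron difference 0.40 without WT4 (exact permutation p = 0.0397, unadjusted) and 0.16 without WT3. HT2 had the highest astrocyte, precursor, microglia (1.55) and endothelial and mural (1.88) scores and the lowest excitatory neuron score (-1.43). WT3 had the lowest astrocyte and precursor scores (-1.10 and -1.49). The part of cell type numbers in the lectican values was not tested.

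Among all 13880 genes with a mean of at least 50, those most like each member over the 10 mice were listed by r, as a description of a search without a test. Bcan had 114 genes with r above 0.9, led by Rps9 (0.98), Epas1 (0.98) and Esam (0.97). Vcan had 27, led by Cdk4 (0.98), Rassf4 (0.97) and Cnot6 (0.95), and Acan had 24, led by Pacsin3 (0.97), Pnp (0.96) and Adgrg1 (0.95). The other 6 members had between 1 and 4 such genes. The 3 genes with the highest r, not all above 0.9, were Oacyl, Mios and Rtl5 for Ncan (0.95 to 0.91), Mpp6, Ttbk1 and Lrrc75a for Hapln4 (0.95 to 0.92), Pdgfd, Ptar1 and Fmc1 for Hapln1 (0.94 to 0.90) and Lmtk3, Mrpl27 and 2010300C02Rik for Hapln2 (0.90). For Tnr they were Gm20695, Gm49317 and Vkorc1 (0.94 to 0.91), and for Tnc Tipin, Zpbp and Gm10443 (0.90 to 0.87).

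The partners of the family were then described from lists. Over all tested genes 48.8% had a positive log2 fold change and 9.23% a limma unadjusted p under 0.05 (4.71% higher and 4.52% lower in HT). Of hyaluronan genes 12 of 15 were tested, 7 with a positive log2 fold change (median 0.06). At a limma unadjusted p under 0.05 there were 2 (16.7%, beside 9.23% of all), both higher in HT and both inter-alpha-trypsin inhibitor heavy chains, which bind hyaluronan. Itih5 had 1401 ± 297 in HT against 1066 ± 61.7 in WT (SD, n = 5, log2 fold change 0.37, SE 0.12, limma adjusted p 0.47) and Itih3 0.24 on the log2 scale (SE 0.09, limma adjusted p 0.50). Itih5 was high in HT2, HT4 and HT5 (1570, 1477 and 1766) and within the WT range in HT1 and HT3 (1081 and 1111). The meninges and fibroblast score was 0.82, 0.75 and 1.20 in the first 3 of these mice and -1.03 and -1.34 in the other 2, and its part in the Itih5 values was not tested. The hyaluronan synthases Has2 (22.9 ± 6.20 against 23.3 ± 6.45) and Has3 (147 ± 36.9 against 167 ± 17.9) had log2 fold changes of -0.0080 and -0.21 (limma adjusted p 0.99 and 0.66), and the hyaluronan receptor Cd44 had 0.13 (limma adjusted p 0.80).

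Genes that build and sulfate the chondroitin chains were described next, without a test of the list. Of 20 tested, 8 had a positive log2 fold change (median -0.017), and 1 had a limma unadjusted p under 0.05 (5.0%, beside 9.23% of all). This was Chst12, a 4-O-sulfotransferase, with 404 ± 39.1 in HT and 476 ± 22.6 in WT (log2 fold change -0.24, SE 0.08, limma adjusted p 0.47). Chsy3, which extends the chain, had -0.20 (limma adjusted p 0.59), Chst3, a 6-O-sulfotransferase, 0.11 (limma adjusted p 0.84) and Chst11, a 4-O-sulfotransferase, 0.06 (limma adjusted p 0.67).

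Of 16 proteases and inhibitors, 10 had a positive log2 fold change (median 0.07), and 1 had a limma unadjusted p under 0.05, lower in HT (6.25%, beside 9.23% of all). This was Adamts8, with 298 ± 34.2 in HT and 341 ± 25.4 in WT (log2 fold change -0.20, SE 0.09, limma adjusted p 0.54). The aggrecanases Adamts4 (644 ± 119 against 565 ± 202) and Adamts5 (155 ± 19.5 against 154 ± 15.6) had log2 fold changes of 0.25 and 0.0080 (limma adjusted p 0.71 and 0.99). Adamts20 had 0.10 (limma adjusted p 0.57).

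Of 19 receptors and ligands tested, 9 had a positive log2 fold change (median -0.030) and 4 had a limma unadjusted p under 0.05, 1 higher and 3 lower in HT, which is 21.1% beside 9.23% of all tested genes. Sdc4, a syndecan that binds tenascin-C, had 1045 ± 155 in HT and 795 ± 112 in WT (log2 fold change 0.39, SE 0.11, limma adjusted p 0.41). Lower in mean were the receptor phosphatases Ptprf (4647 ± 461 against 5518 ± 401, log2 fold change -0.25, SE 0.07, limma adjusted p 0.41) and Ptprs, a receptor of chondroitin sulfate (14588 ± 476 against 15721 ± 535, log2 fold change -0.11, SE 0.04, limma adjusted p 0.50). The adhesion molecule Nrcam had -0.16 (limma adjusted p 0.51). Cntn1, a neuronal ligand of tenascin-R, had -0.15 (limma adjusted p 0.56) and Ptprz1, a glial phosphatase and proteoglycan that binds tenascins, 0.14 (limma adjusted p 0.61). The excitatory neuron markers, 3 of 10 with a positive log2 fold change (median -0.056), had a score difference of -0.36 (exact permutation p = 0.452), and the astrocyte markers had 12 of 12 positive. The part of either cell type in these genes was not tested. Without HT2 and HT5, 2 of the 19 had a limma unadjusted p under 0.05, beside 6.02% of all tested genes in that setting.

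Among 12 other chondroitin sulfate proteoglycans and family members, 7 had a positive log2 fold change (median 0.02) and 2 had a limma unadjusted p under 0.05, both higher in HT (16.7%, beside 9.23% of all). Cspg4 (NG2, the proteoglycan of oligodendrocyte precursors) had 1105, 1349, 1258, 1211 and 1348 normalised counts in HT1 to HT5 and 1208, 1246, 904, 1060 and 1119 in WT1 to WT5, a difference of 0.18 on the log2 scale (SE 0.08, limma adjusted p 0.54). Prg4, the lubricin of joints, was scarce (36.9 ± 34.0 against 12.8 ± 5.43, limma adjusted p 0.50), and its highest value, 96.0, was that of HT5. Cspg5, a neuronal proteoglycan, had a log2 fold change of 0.035 (limma adjusted p 0.79). Across the 5 lists 0 genes passed adjustment over all tested genes. Without HT2 and HT5 the unadjusted counts of the hyaluronan, chondroitin and other proteoglycan lists were 0, beside 6.02% of all tested genes in that setting.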

How the data were processed

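The authors purified poly-A RNA, made TruSeq libraries (stranded, per the labels) and sequenced them in paired ends. According to the labels and methods, the authors estimated transcript abundance with Salmon 1.1.0 on GRCm38, corrected for GC bias, imported gene-level values with tximport and divided them by DESeq2 1.30.1 size factors. The deposited values are thus a normalised signal per gene, not whole reads. At most 16.9% to 49.7% of values under 10 were whole multiples of a single step per library (tolerance 0.05), so depth was not recovered and no count test was run.

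Identifiers were matched to GENCODE M21 symbols for 18205 of 18216 genes. After a filter at a mean of 10, which kept 16781 genes, log2(value + 1) was fitted with limma 3.58.1 in R 4.3.3 (mean-variance trend, genotype as the only factor), with Benjamini-Hochberg adjustment over all of them. Fold changes on this scale understate changes of low genes. Ratios and marker scores were compared by exact permutation of mice, and correlations by permutation with 100000 resamples, all two-sided, in Python 3.11.15 with numpy 2.4.6 and scipy 1.17.1. The labels number HT and WT mice alike, but the same number names different mice. Nothing in the labels gives litters or batches.

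Genes, lists, ratios and tests were chosen with earlier results of these data known. Named genes were the 9 members, Arid1b, 11 partner genes picked by role (Has2, Has3, Cd44, Chst3, Chst11, Adamts4, Adamts5, Ptprz1, Cntn1, Cspg4 and Cspg5), in each list the 2 genes with the smallest p, and for each member the 3 genes with the highest r. Ptprs and Nrcam were named, and the correlations between members, the neighbouring pairs, the promoter motifs and 3 further marker scores chosen, after values were seen. Scores of microglia, endothelial and mural cells, meninges and fibroblasts, and striatum differed between genotypes by 0.81, 0.46, 0.16 and 0.46 (exact permutation p = 0.175, 0.429, 0.77 and 0.429), and that of excitatory neurons by -0.36 (p = 0.452, exact). Without HT2 the endothelial and mural difference was 0.067 and the excitatory -0.065. With a mouse left out at a time the meninges and fibroblast difference ranged from -0.14 (without HT5) to 0.51 (without HT3) and that of striatum from 0.22 (without WT3) to 0.87 (without HT5). The choroid plexus list was void, as 60% of its genes had a value.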

Additional observations from a re-analysis of the deposited data

Results flagged for a closer look

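The distance of an extreme mouse to its nearest neighbour, as a share of its group's spread, was checked against 0.71 for the 9 genes, the 6 ratios and 9 marker scores. It was exceeded in 4 of 48 groups, and about 2.4 would do so by chance. Acan in HT2 stood above the other HT mice, at 189 normalised counts against 134 to 148. Hapln4 in HT2 stood below them, at 179 against 207 to 218. Tnc in WT2 was 1239, against 1381 to 1432 in the other WT mice. The log2 ratio of Acan to Hapln1 in WT5 was -4.51, against -4.02 to -3.92 in the other WT mice. The causes of these 4 values were not tested.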

How the results depend on the processing

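Arid1b was lower in HT and past the threshold in each of 20 alternatives. Leaving out a mouse at a time gave -0.61 to -0.56, and 3 or 4 genes passed in all. The number of members called was 0 under every alternative that was run, and Acan, Bcan, Vcan, Hapln2 and Hapln4 kept their direction throughout. The Tnc difference turned positive with upper-quartile rescaling (0.0088), quantile normalisation (0.013) and sample quality weights (0.0090), and ranged from -0.039 to 0.037 with a mouse left out. Tnr turned to 0.0091 with quantile normalisation. Ncan turned to -0.0032 with sample quality weights and to -0.011 without HT2 and HT5, and ranged from -0.011 to 0.055 with a mouse left out, and Hapln1 from -0.10 to 0.0092. The log2 ratios of Acan to Vcan and of Tnr to Tnc ranged from -0.089 to 0.040 and from -0.088 to 0.014 with a mouse left out.

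Members with an unadjusted p under 0.05 numbered 2 in the main analysis, 1 with a filter at a mean of 50 (which leaves out Hapln2), with quantile normalisation and without HT2 and HT5, and 0 without the variance trend. Leaving out a mouse gave 0 to 2. Over all tested genes the share with such a p was 6.02% without HT2 and HT5, 8.53% without the variance trend and 6.46% to 10.9% with a mouse left out. The protease list went from 1 to 0 with a pseudocount of 10 and with upper-quartile rescaling, and gave 0 to 2 with a mouse left out. The list of other proteoglycans went from 2 to 1 with a filter at 50 and without the trend and to 0 with sample weights and without HT2 and HT5 (1 to 4 with a mouse left out). Without HT2 and HT5 the hyaluronan and chondroitin lists gave 0 and the receptor list 2, and a mouse left out gave 1 to 5, 1 to 2 and 2 to 6. Marker lists with an unadjusted exact p under 0.05 numbered 0 and at most 2 with a mouse left out (0 to 2), and correlations past adjustment 1 to 3, or 4 with all cell type scores. With coding length in place of exons, 5 of 9 members kept their place in the order of levels. The causes of these changes were not tested.

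With the replicate number as a block (replicate block), 0 members and 3 genes passed, Vcan had a log2 fold change of 0.25 and Arid1b -0.585, and for the ratio of Bcan to Ncan the exact sign-flip p was 0.0625, the smallest that 5 pairs can give, so that test could not pass. Correlations of the deviations of same-numbered mice ranged from -0.041 to 0.10, with a mean of 0.038 against -0.0091 for other numbers. With 5 candidates each, 5 of 10 mice had their best match in the other group under their own number. Whether the numbers mark pairs was not tested. The unknown depth limits the precision of scarce genes such as Hapln2.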
